A study of Mus musculus with 7 samples.

Results

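Histone H1foo and nucleoplasmin Npm2, the oocyte forms, were followed with 6 histone variant genes that somatic cells also use: H1f0, H1fx, H2afz, H2afx, H3f3a and H3f3b. The 8 genes were taken by symbol from the 26586 rows of the deposited count table, and all 8 symbols were found. The study measured messenger RNA in 7 mouse embryos, each sequenced on its own. They were C57BL/6 morulae taken 3 days post coitum from L13a+/- mice crossed with each other, where L13a is Rpl13a, a ribosomal protein gene of which each parent carried 1 mutant copy. All 7 embryos form 1 group, numbered 1 to 7, and the labels give no genotype, sex, litter or batch, so no groups of embryos could be compared. Per the labels' protocols, embryos came from flushed oviduct or uterus, cDNA was primed on the poly(A) tail (SMART-Seq v4), and Nextera XT was used for the libraries.

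Chromatin of the mammalian oocyte carries its own linker histone, H1foo, which binds the DNA between nucleosomes and is replaced by somatic H1 forms as the embryo develops. Nucleoplasmin is a histone chaperone stored in the egg, and Npm2 of the mouse organises chromatin of the oocyte and early embryo. Replication-coupled histones are made in S phase from messages that end in a stem-loop and normally carry no poly(A) tail. Replacement variants such as H3.3, H2A.Z and H1.0 come from polyadenylated messages, and specific chaperones place them in chromatin outside S phase.

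Library depth differed widely, and it limits what a count of 0 means. Totals lay between 139619 counts in embryo 6 and 33123742 in embryo 4, a range of 237-fold, and embryos 3 and 6 were the shallowest. A count of 0 allows up to 3 counts, which is 0.0906 CPM (each gene's counts scaled to the total of its library) in embryo 4 and 21.5 CPM in embryo 6. This limit covers counting error within the library only, so it does not bound the message in the embryo itself. The oocyte marker list, 16 genes such as Omt2b, Tcl1, Bcl2l10 and Omt2a, summed to between 11689 and 24968 CPM in embryos 1, 2, 3, 6 and 7, but to 23.8 CPM in embryo 4 and 822 CPM in embryo 5. Of the 14 morula and lineage markers (Krt8, Krt18, Pou5f1 and Tfap2c lead by mean), embryo 4 had counts for 14 and a sum of 4789 CPM, embryo 2 for 10 and 737 CPM, embryo 7 for 8 and 472 CPM and embryo 5 for 5 and 782 CPM. In embryos 1, 3 and 6 no more than 3 of these 14 had a count and the sum was 9.62 to 50.1 CPM, so the labelled stage was not borne out by its markers there, at the depth of these libraries. Embryo 5 had no count of Krt8, Krt18 or Pou5f1, and embryo 7 none of Krt8 or Krt18, so their markers bore the stage out only in part. Oviduct and uterine markers (Lcn2, Sprr2f, Wfdc2, Ltf) summed to 6289 CPM and stroma and muscle markers (Dcn, Myh11, Vim, Col1a1) to 4734 CPM in embryo 6, the highest sums of both lists. There 4 of the 10 oviduct and uterine genes and 3 of the 10 stroma and muscle genes had a count. Dcn alone gave 4240 CPM of the stroma and muscle sum, and Myh11 had no count. The oviduct and uterine sum was also 1153 CPM in embryo 1 and 1811 CPM in embryo 2. The stroma and muscle sum was 258 CPM in embryo 1 and 565 CPM in embryo 3, the latter from Myh11 alone. Blood and immune markers (Hbb-b1, Csf1r, S100a9, Hba-a2) reached 444 CPM, also in embryo 6, where only Hbb-b1 and Csf1r of that list had a count. Sperm markers (Prm2, Prm1) reached 22.0 CPM in embryo 7. Of the 10 cumulus and granulosa markers only Tnfaip6 in embryo 5 and Star in embryo 4 had a count, 1 each, with Ptx3 and Has2 at 0. Rpl13a itself had 86.5, 119, 5.51, 530, 3.26, 7.16 and 23.5 CPM in embryos 1 to 7, and no genotype was read from it.

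How the genes are built bears on which reads reach them. H1foo lies on the plus strand at chr6:115944938-115950236 (GRCm38), H1fx on the minus strand at chr6:87980421-87981637 and H1f0 on the plus strand at chr15:79028450-79030504. Npm2 lies at chr14:70647302-70659244 on the minus strand, where 4999 bases also belong to the span of Xpo7 on that strand, and none of its exonic stretches of 50 bases recurs in another gene. H2afz lies at chr3:137864487-137866922, H2afx at chr9:44334694-44336077, H3f3a at chr1:180800832-180813943 and H3f3b at chr11:116021912-116027962. H2afz shares 35.4% of its exonic 50-base stretches with 6 other annotated genes, 4 of them pseudogenes, and H3f3a shares 27.1% with 193, of which 39 are pseudogenes. The authors' counting could split reads among such copies, so the counts of these 2 genes are uncertain in that respect, and H1f0, H1fx, H2afx and H3f3a also overlap genes on the opposite strand, whose reads cannot be told apart without strand.

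H2afx differs from the other 7 genes in a sequence that bears on capture by poly(A), the step the labels describe. The histone stem-loop consensus, 16 bases long and searched on the sense strand of GENCODE M21 transcripts of GRCm38, was found in 1 of the 8 genes, H2afx, in 44 of 70 annotated Hist genes and in 0.225% of all 55450 genes. The match is a description of the letters and does not show a working site. In each line the capitals mark the stem-loop, and 3 linker histone genes that recur in the results are set beside H2afx.
H2afx: acaaaGGCCCTTTTAAGGGCCaccac
Hist1h1c: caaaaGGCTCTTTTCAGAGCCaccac
Hist1h1d: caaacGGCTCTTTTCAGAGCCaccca
Hist1h1e: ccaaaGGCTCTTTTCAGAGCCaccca
In H2afx the stem-loop starts at base 547 of a transcript of 1384 bases, so the annotated message runs on well past it. H2afx is known to give both a stem-loop form and a longer polyadenylated form.

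H3f3a and H3f3b encode the same H3.3 protein, the replacement form of histone H3, yet their messages can be told apart. Their coding sequences are 408 bases each and differ at 95 positions, an identity of 76.7%. The first 90 coding bases are printed with the 20 differing bases in capitals, to show how closely such differences are spaced.
H3f3a: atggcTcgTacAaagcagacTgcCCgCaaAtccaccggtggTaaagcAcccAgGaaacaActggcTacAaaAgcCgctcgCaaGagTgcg
H3f3b: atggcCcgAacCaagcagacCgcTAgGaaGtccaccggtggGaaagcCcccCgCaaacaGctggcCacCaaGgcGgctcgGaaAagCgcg

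Embryos differed first in which of the genes they showed at all. Of the 8 genes, 3, 7, 2, 7, 3, 2 and 8 had a count in embryos 1 to 7. In the same order, 19.3%, 35.3%, 13.1%, 45.4%, 12.7%, 6.58% and 33.7% of all 26586 genes had a count. Embryo 7 alone had counts for the whole set. With every library thinned to the lowest total, 3, 7, 2, 5, 3, 2 and 8 of the genes had a count, beside 14.9%, 26%, 10.6%, 32.3%, 8.77%, 6.58% and 25% of all genes, so at the same total embryos 2, 4 and 7 still showed more of all genes than the other embryos. Because each library is a whole embryo, fewer cells that carry a message and less message in each cell cannot be told apart.

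**Figure D1:**
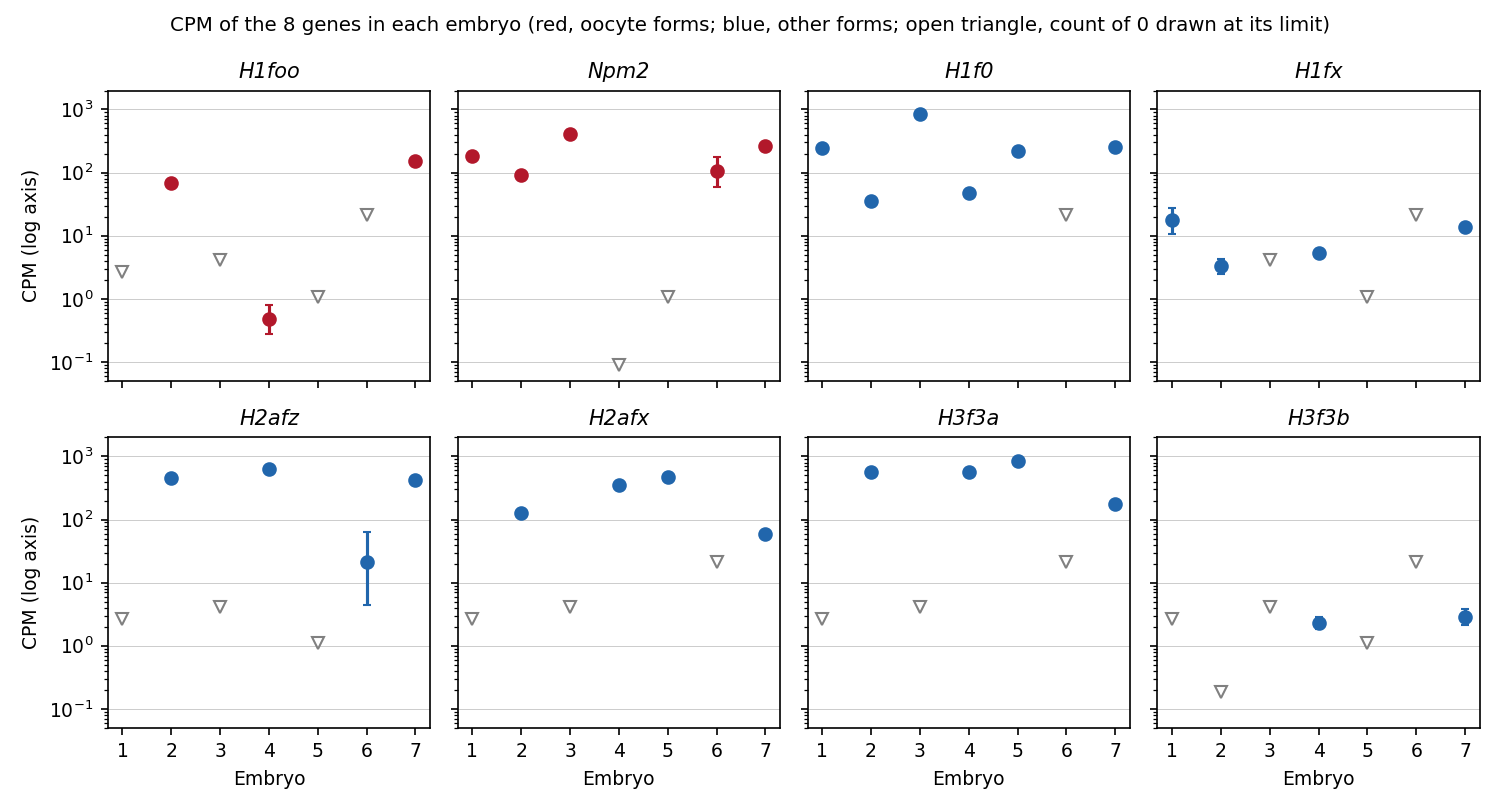
CPM on a log axis (vertical) of each of the 8 genes in embryos 1 to 7 (horizontal), red for the oocyte forms and blue for the others, with 95% Poisson intervals of the counts as bars and open triangles for a count of 0, drawn at the limit of 3 counts. H1foo stood at 154 CPM in embryo 7 and had no count in 4 embryos, while H3f3a stood at 177 to 852 CPM in 4 embryos and had no count in the other 3.

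H1foo, the oocyte linker histone, was high in embryos 2 and 7 and low or not detectable in the others. It had 0, 69.4, 0, 0.483, 0, 0 and 154 CPM in embryos 1 to 7. Embryo 7 was highest and embryo 2 second, without overlap of their 95% Poisson intervals, which cover counting error only because PCR copies carry no molecular identifiers. The 0.483 CPM of embryo 4 rest on 16 counts (interval 0.276 to 0.784 CPM), so the value in embryo 7 was 320-fold that in embryo 4. Embryos 1, 3, 5 and 6 had no count and cannot be ordered. In embryos 1, 3 and 6 the oocyte markers were high without a count of H1foo, at limits of 2.62, 4.13 and 21.5 CPM, all below the 69.4 CPM of embryo 2. H1foo was counted in exactly the embryos 2, 4 and 7, a set shared by 1246 other genes, 4.69% of all.

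Npm2, the egg's nucleoplasmin, was counted in 5 of 7 embryos and had no count in embryos 4 and 5. It had 185, 89.95, 416, 0, 0, 107 and 269 CPM in embryos 1 to 7. Embryo 3 was highest, then embryo 7, then embryo 1, while the intervals of embryos 1 and 6 and of embryos 6 and 2 overlapped. The counts of 0 in embryos 4 and 5 came from libraries of 33123742 and 2764409 counts. The value in embryo 3 was 4595-fold the limit of 3 counts in the library of embryo 4, a limit that covers counting error only. Embryos 4 and 5 were also the pair with the lowest summed oocyte markers, at 23.8 and 822 CPM, and the part of those markers in the result was not tested. Only 39 other genes, 0.147% of all, were counted in exactly the embryos that had Npm2, and Oog3, Obox5 and Lmo1 had the highest mean CPM among them. A wider pattern, counts in embryos 1, 2, 3 and 7 and none in 4 and 5, held for 1 of the 8 genes (Npm2) and for 0.493% of all genes, and both patterns were chosen after the values were seen.

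Npm1, the nucleolar nucleoplasmin of dividing cells, ran a different course from Npm2 in the same embryos. Npm1 had 444, 276, 550, 2867, 416, 0 and 52.4 CPM in embryos 1 to 7. It shares 24.3% of its exonic 50-base stretches with 11 other genes, 10 of them pseudogenes. Its counts, and the shares that follow, are uncertain in that respect. Per kb of exon, Npm2 made 51.8%, 45.6%, 66.1%, 0%, 0% and 92.9% of the 2 genes' summed CPM in embryos 1, 2, 3, 4, 5 and 7. Per kb of coding sequence these shares were 37.1%, 31.5%, 51.6%, 0%, 0% and 87.8%, so which gene led in embryo 1 depended on the length used. Embryo 7 was thus mostly Npm2 and embryos 4 and 5 entirely Npm1, with the others in between. Embryo 6 had 15 counts of Npm2 and none of Npm1, too few to place. Npm3, the other family member listed, reached at most 8.68 CPM, in embryo 5.

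H1f0, the replacement linker histone H1.0 of resting and differentiated cells, was the most widely counted of the 8 genes. It had 244, 35.4, 834, 47.3, 217, 0 and 250 CPM in embryos 1 to 7. Embryo 3 was highest, embryos 7, 1 and 5 followed within a narrow range in which neighbours overlapped, and embryos 4 and 2 were low. Embryo 6 had no count, which allows up to 21.5 CPM in that library, a level below every other embryo. The 6 embryos with H1f0 were exactly those of 595 other genes, 2.24% of all. H1fx, the linker variant H1.10, was scarce: 17.5, 3.28, 0, 5.404, 0, 0 and 13.96 CPM. Its highest values, in embryos 1 and 7, overlapped, and the embryos at 0 could hold H1fx at levels like those of embryo 2 without a count in embryos 3 and 6. The set of 4 embryos with H1fx was shared by 743 other genes, 2.79% of all.

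The balance between the oocyte and the other linker forms turned on the embryo. H1foo made 74.4% of the summed CPM per kb of exon of H1foo, H1f0 and H1fx in embryo 2, 49.1% in embryo 7 and 1.44% in embryo 4, and 0% in embryos 1, 3 and 5. Set per kb of coding sequence, the same shares were 53.3% in embryo 2, 27.1% in embryo 7 and 0.579% in embryo 4, so whether H1foo or H1f0 was higher in embryo 7 depended on the length used. The difference of H1foo and H1f0 on the log2 CPM per kb scale averaged -4.58 ± 5.36 (SD, n = 7), with a two-sided exact sign-flip permutation p of 0.125 and 0.188 after Benjamini-Hochberg adjustment over 3 gene pairs. Within the embryos it ran from -10.73 in embryo 3 to 1.74 in embryo 2. Embryo 6 had a count of neither gene, so its 0.77 comes from the lengths alone, and without it the difference was -5.47 ± 5.27 (SD, n = 6) at an exact permutation p of 0.125, a choice made after the values were seen. H1foo and H1fx differed by -0.19 ± 3.61 (SD, n = 7) on that scale, with an exact permutation p of 1.0, and both genes were at 0 in 3 of the embryos. The smallest p that 7 embryos can give is 0.0156, and neither difference was larger than the spread between embryos.

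The replication-coupled linker genes Hist1h1a to Hist1h1e were set beside these 3, from a list of 8 genes that also held 3 testis forms. Hist1h1a, the H1.1 form, led them in embryos 1, 2, 6 and 7, with 288, 37.4, 0, 10.9, 1.09, 35.8 and 73.7 CPM in embryos 1 to 7. Hist1h1c, the H1.2 form, stood at 1056 CPM in embryo 5 and at 21.2 CPM or less elsewhere. Hist1h1e, the H1.4 form, had 514 CPM in embryo 5 and 104 CPM in embryo 4, and Hist1h1d, the H1.3 form, had 327 and 18.1 CPM in those embryos. Hist1h1e overlaps Hist1h2be on its own strand by 496 bases and shares 32.0% of its 50-base stretches, so its counts are uncertain. The list summed to 1902 CPM in embryo 5, against 291 CPM or less in each other embryo, and 0 of its 5 genes tested passed the edgeR test of spread across all genes. Embryos 4 and 5 were the only ones with over 3 counts of Hist1h1e or any of Hist1h1d, while H1foo was at 0.483 and 0 CPM there. Across all 68 rows of the Hist1 to Hist4 clusters the summed CPM were 692, 288, 19.3, 973, 13318, 43.0 and 168, highest in embryo 5. A single row, Hist1h2ao, gave 9249 of the 13318 CPM of embryo 5, and 19 of the 68 rows had a count there, against 58 in embryo 4.

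**Figure D2:**
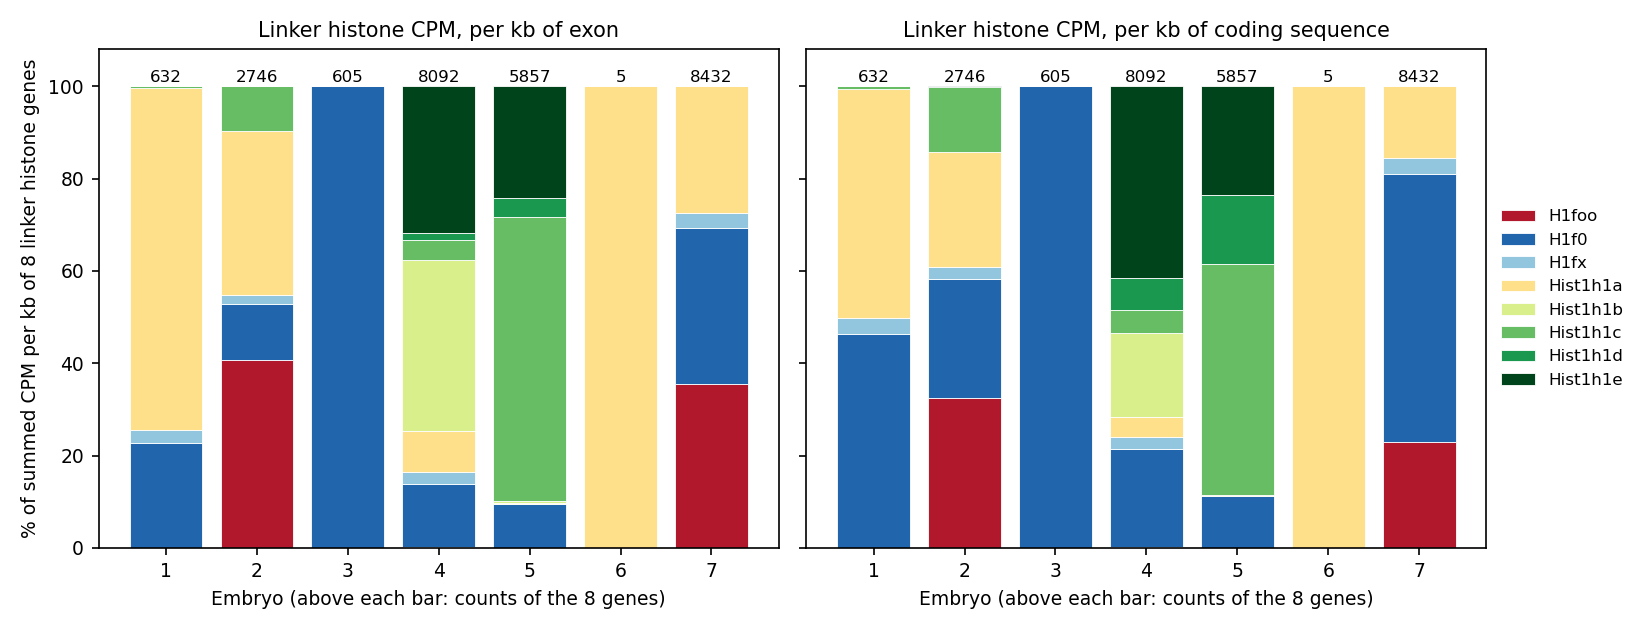
Share of each of 8 linker histone genes in their summed CPM (vertical, %) for embryos 1 to 7 (horizontal), per kb of exon on the left and per kb of coding sequence on the right, with the number of counts above each bar. H1foo takes a visible share only in embryos 2 and 7, and the Hist1h1c, Hist1h1d and Hist1h1e blocks fill most of embryo 5 on both scales, while the bar of embryo 6 rests on 5 counts.

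H2afz and H2afx, the H2A.Z and H2A.X variants of histone H2A, parted from each other in embryo 5. H2afz, which marks promoters and is required for mouse embryos to develop past implantation, had 0, 450, 0, 636, 0, 21.5 and 418 CPM in embryos 1 to 7. Embryos 4, 2 and 7 were high in that order without overlap of neighbours, and the value of embryo 6 rests on 3 counts (interval 4.43 to 62.8 CPM). H2afx, whose protein is phosphorylated around DNA breaks, had 0, 125, 0, 354, 474, 0 and 58.6 CPM. Embryo 5 was thus the highest for H2afx and had no count of H2afz, at a limit of 1.09 CPM. The set of embryos with H2afz, 2, 4, 6 and 7, was shared by 112 other genes, 0.421% of all. Per kb of exon, H2afz made 73.8% of the 2 genes' summed CPM in embryo 2, 58.4% in embryo 4, 0% in embryo 5 and 84.8% in embryo 7. H2afv, which encodes the second H2A.Z protein, was highest in embryo 3 at 901 CPM, with 318 CPM in embryo 2, 186 CPM in embryo 4, 49.2 CPM in embryo 7, 3.50 CPM in embryo 1 and none in embryos 5 and 6, so embryo 5 had a count of neither H2A.Z gene.

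H3f3a gave nearly all the H3.3 message that was counted. It had 0, 563, 0, 564, 852, 0 and 177 CPM in embryos 1 to 7, while H3f3b had 0, 0, 0, 2.32, 0, 0 and 2.86 CPM. Embryo 5 was highest for H3f3a, embryos 4 and 2 overlapped, embryo 7 was lower, and embryos 1, 3 and 6 had no count of either gene. Of the summed CPM per kb of exon of both, H3f3a made 100% in embryos 2 and 5, 99.5% in embryo 4 and 98.1% in embryo 7. H3f3a exceeded H3f3b by 5.08 ± 5.41 (SD, n = 7) on the log2 CPM per kb scale, with an exact sign-flip permutation p of 0.125 and 0.188 after adjustment over 3 pairs, being higher in 4 of 7 embryos with both at 0 in the rest. With those 3 embryos left out, a choice made after the values were seen, the difference was 9.08 ± 2.99 (SD, n = 4) with an exact p of 0.125, the smallest that 4 embryos can give, so this p adds nothing to the shared direction. H3f3c, an H3f3a-like gene that shares 73.8% of its 50-base stretches with other genes, had at most 18.8 CPM, in embryo 5. H3f3b was counted in exactly embryos 4 and 7, as were 762 other genes, 2.87% of all.

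H2afx and H3f3a were counted in the same 4 embryos, 2, 4, 5 and 7. Each shared that set of embryos with 490 other genes, 1.84% of all, among which Rps18, Mrpl20 and Ssr4 had the highest mean CPM. Counts in embryos 2, 4 and 7 with none in embryos 1 and 3 held for 4 of the 8 genes (H1foo, H2afz, H2afx and H3f3a), against 7.19% of all genes, a pattern chosen after the values were seen. In the 5 embryos outside 4 and 5 the counted genes differed: embryos 2 and 7 had Npm2 and H1foo beside H1f0, H2afz, H2afx and H3f3a. Embryos 1 and 3 had Npm2 beside H1f0, at 244 and 834 CPM, without a count of H2afz, H2afx or H3f3a, and embryo 6 had only Npm2 and 3 counts of H2afz. Only 19.3%, 13.1% and 6.58% of all genes had a count in embryos 1, 3 and 6, against 35.3% and 33.7% in embryos 2 and 7. Whether the embryos themselves differed in these messages was not tested.

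The 2 oocyte forms made 41.5%, 11.9%, 33.3%, 0.0300%, 0%, 83.3% and 31.5% of the counts of the 8 genes in embryos 1 to 7, a median of 31.5% (SD 29.2, n = 7). Embryos 4 and 5 stood far below the rest, with 16 of 53316 and 0 of 4265 counts. The share of embryo 6 rests on 18 counts, with a 95% Clopper-Pearson interval of 58.6% to 96.4%. Per kb of exon the shares were 57.3%, 21.6%, 49.8%, 0.05005%, 0%, 89.6% and 45.6%, in the same order of embryos. Per kb of coding sequence they were 39.9%, 7.06%, 31.9%, 0.0134%, 0%, 75.6% and 22.1%, so every share above 0 was lower than per kb of exon. With H3f3a left out because of its copies, the share of counts was 20.6% in embryo 2 and 36.3% in embryo 7. The summed CPM of the oocyte forms were 185, 159, 416, 0.483, 0, 107 and 423, and those of the other forms 261, 1176, 834, 1609, 1543, 21.5 and 921. Embryo 2, whose share was the lowest outside embryos 4 and 5, was below embryos 1, 3 and 7 in the oocyte sum and above them in the sum of the other forms. The 5 embryos with a share of 11.9% or more were the 5 whose oocyte markers summed to 11689 CPM or more, and the part of those markers in the result was not tested.

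**Figure D3:**
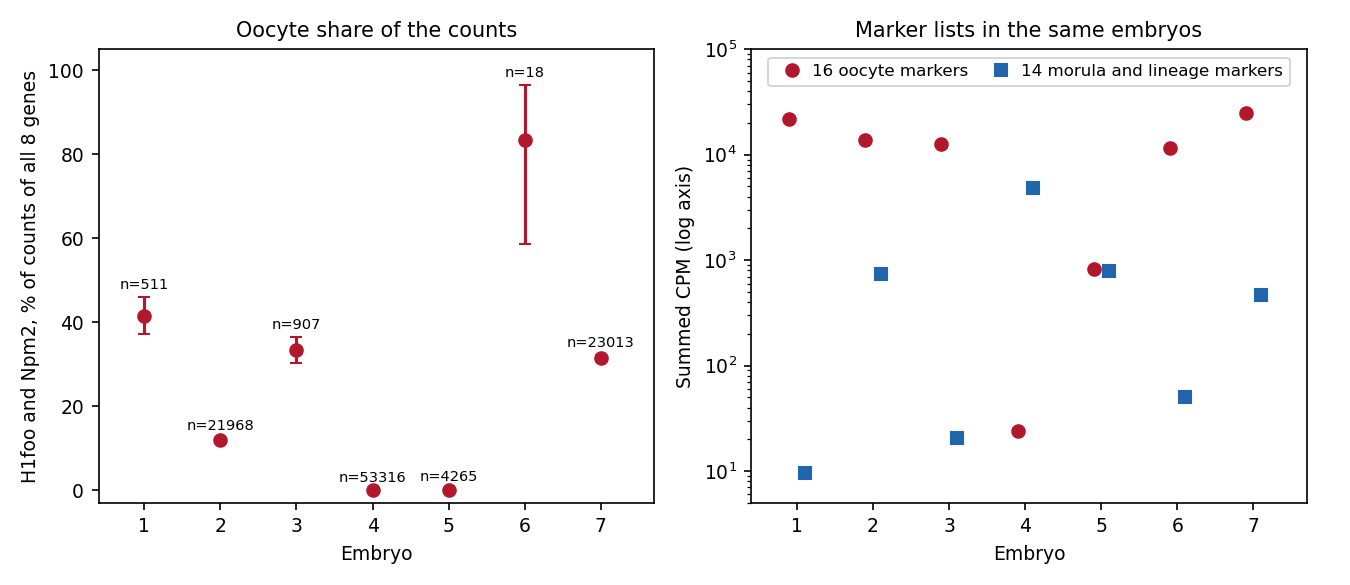
Left, share of H1foo and Npm2 in the counts of the 8 genes (vertical, %) in embryos 1 to 7 (horizontal), with 95% Clopper-Pearson intervals and the number of counts. Right, summed CPM on a log axis of the oocyte and the morula marker lists in the same embryos, where embryos 4 and 5 are lowest for oocyte markers at 23.8 and 822 CPM, as they are for the share at 0.0300% and 0%.

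The genes that load and read these histones were followed as lists. Their genes with a mean of at least 1 CPM were tested as part of the whole table, and 0 genes of each list passed the test of spread. Of the other variants 6 of 9 were tested, and of the genes listed for making stem-loop histone messages 8 of 9. The median SD of log2 CPM was 3.64 for the H3.3 chaperones, close to the 3.63 of all genes tested. It was higher for the other lists that follow: 4.16 for replication-coupled chaperones, 3.88 for H2A.Z deposition and removal and 3.91 for H2A.X kinases and readers. Genes listed for making stem-loop histone messages had 3.95 and other variants 4.23. Chaperones of H3.3 (9 genes, led by Atrx, Dek, Cabin1 and Ubn1) summed to 2332, 1651, 2092, 625, 156, 1432 and 1315 CPM in embryos 1 to 7, lowest in embryo 5, where H3f3a itself was highest. Only 2 of the 9 had a count in embryo 5, with Atrx giving nearly all of the sum, so few detected genes underlie that low sum. Atrx, the remodeller that works with Daxx, was counted in every embryo, at 150 CPM in embryo 4 to 1211 CPM in embryo 3. Replication-coupled chaperones (10 genes, led by Set, Nap1l4, Nap1l1 and Nasp) summed to 1899, 845, 382, 2751, 1671, 85.95 and 932 CPM, highest in embryo 4.

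For H2A.Z, genes of deposition and removal (11 genes, led by Ruvbl1, Ep400, Yeats4 and Ruvbl2) summed to between 651 CPM in embryo 2 and 1489 CPM in embryo 4. Embryo 5 held 822 CPM of them, 588 CPM from Yeats4, beside its count of 0 for H2afz. The sum of embryo 6, 1082 CPM, came from Ruvbl1 alone. Kinases and readers of H2A.X (10 genes, led by Baz1b, Eya1, Trp53bp1 and Mdc1) summed to 1026 CPM in embryo 5, the highest, and had no count in embryo 6. Only 5 of the 10 had a count in embryo 5, against 10 in embryo 4, 9 in embryo 2 and 8 in embryos 1 and 7. Trp53bp1 had none in embryo 5, and Baz1b had 24.6 CPM. Eya1, a phosphatase that acts on the tail of H2A.X, had 587 CPM in embryo 5 and at most 18.5 CPM elsewhere. Mdc1, which binds phosphorylated H2A.X, had 341 CPM in embryo 5 and at most 51.0 CPM elsewhere. Both were named for their mean CPM, which came mostly from embryo 5, so their peak there is no separate evidence about H2afx. Genes listed for making stem-loop histone messages (9 genes, led by Casp8ap2, Slbp, Npat and Cpsf2) summed to 1521 CPM in embryo 3, where 3 of the 9 had a count, and to 0 in embryo 6. In embryo 3 Casp8ap2 gave 984 CPM, Npat 536 CPM and Slbp 1.38 CPM, and Cpsf2 had no count, so that sum is not a measure of message processing. Slbp, the stem-loop binding protein, was highest in embryo 5 at 303 CPM, also the embryo of the highest summed Hist CPM. Among other variants (9 genes, led by Cenpa, H2afj, H2afv and H2afy), Cenpa, the centromeric H3, stood at 2260 CPM in embryo 5, at 525 CPM or less in the other embryos, and at 0 in embryo 6.

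Across all genes, the edgeR quasi-likelihood test asked whether a gene spread more between embryos than genes of like abundance. It called 0 of 11810 genes (0%) at an adjusted p of 0.05, with 68 at an unadjusted p under 0.05, and DESeq2's dispersion outliers and limma on the authors' log2 table also called 0. Of the 8 genes 7 were tested and 0 called, with adjusted p between 0.869 and 0.913. H3f3b, at a mean of 0.741 CPM, lay under the filter of a mean of 1 CPM. On simulated libraries with this noise the test recovered 0% of 200 genes with raised dispersion, so the count of 0 says little about any of the genes.

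As a description, SDs of log2 CPM were 4.24 for H1foo, 4.67 for Npm2, 3.85 for H1f0, 2.92 for H1fx, 5.65 for H2afz, 5.39 for H2afx, 6.04 for H3f3a and 1.85 for H3f3b. H3f3a, H2afz and H2afx lay at percentiles 99.9, 99.2 and 98.1 of all genes tested, and the 7 genes tested had a median SD of 4.67, against 3.63 for all. Such SDs set high values in some embryos against counts of 0 in others, and H3f3b was scarce in every embryo. The SD of H1f0 was 1.47 without embryo 6, where it had no count.

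**Figure D4:**
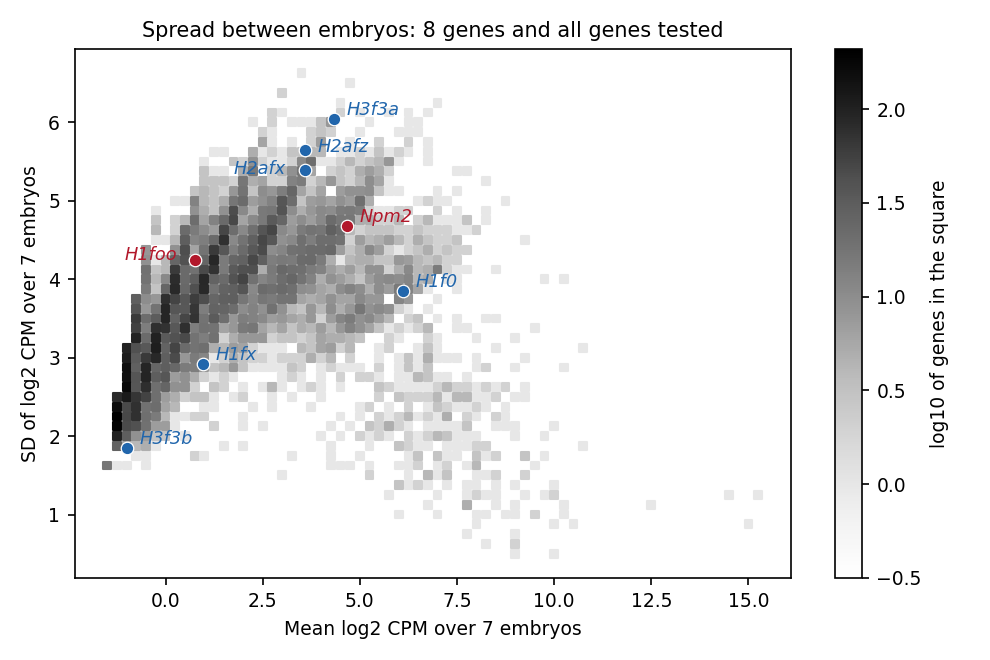
SD of log2 CPM over 7 embryos (vertical) against mean log2 CPM (horizontal) for the 8 genes (red, oocyte forms; blue, other forms), over squares shaded by the number of the 11810 tested genes in them on a log10 scale. H3f3a at an SD of 6.04, H2afz at 5.65 and H2afx at 5.39 sit at the upper edge of the genes, and H1fx at 2.92 and H3f3b at 1.85 at the lower edge.

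Values of the genes fell into separate clusters, some at a count of 0 and the rest well above it, so correlations were not computed where the largest gap between neighbouring log2 CPM exceeded 0.5 of a gene's range. This barred 7 of the 8 genes and every pair among them. H2afz passed narrowly, at 0.488 and through its 3 counts in embryo 6, and was barred under 7 of the alternatives. The rule was not applied to the partner genes, and Dad1 itself has a gap of 0.537 of its range. Dad1, a subunit of oligosaccharyltransferase, had the closest profile over the 7 embryos (Pearson r 0.997, exact permutation p 0.00238, adjusted p 0.204 over 11809 genes). Its Spearman rho was 0.962, with an exact permutation p of 0.00476 and an adjusted p of 0.183. Next came D1Bwg0212e (r 0.995) and Rbm4, an RNA-binding protein (r 0.995), each with an exact p of 0.0143 and an adjusted p of 0.267, and with a rho of 0.846 at an exact permutation p of 0.0381. Embryo 4 was farthest from the median of H2afz, and embryo 3 was next, tied with embryos 1 and 5 at a count of 0. Without embryos 3 and 4, r was 0.996 for Dad1, 0.999 for D1Bwg0212e and 0.998 for Rbm4. All 3 genes had no count in embryos 1, 3 and 5 and 1 count in embryo 6, and 16.7% of all genes reached an unadjusted exact p under 0.05 with H2afz, so these correlations rest largely on which embryos had a count. None of them passed the adjustment.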

How the data were processed

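Per the submitters' processing notes, the authors used HISAT2 2.0.5, featureCounts 1.5.0-p2 of Subread, limma and build GRCm38. Settings, order, gene annotation and strand handling were "not given in the sources used here". Read counts, whole and without normalization, were deposited by the authors for 26586 gene symbols. The authors' deposited log2 table was recomputed from those counts as quantile-normalized log2 CPM, to within 4.97e-14, and served as an alternative. CPM printed for a gene carry no TMM factor.

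For log2 CPM, totals were scaled by TMM factors in edgeR 4.0.16 (R 4.3.3), with a prior count of 2. The test of spread was run where the mean CPM was at least 1, compared each gene's quasi-likelihood dispersion with genes of like abundance in a one-sided F test, and adjusted over all 11810 genes by Benjamini-Hochberg at 0.05. DESeq2 1.42.0 and limma 3.58.1 were alternatives. Tested on simulated data of 11810 genes, it found 91% of 200 raised genes, with 6 false calls, where the dispersion was 0.1. Where it was 9.02, as measured here, it found 0% of 200 in 11520 genes. Gene pairs were compared within embryos by exact sign-flip permutation, per kb of annotated exon (GENCODE M21). Intervals are exact Poisson or Clopper-Pearson at 95% and cover counting error only.

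The 8 genes, the 17 lists (155 of 156 entries in the table) and the tests were chosen with earlier results of these data known. Named were the 8 genes, for each list its 4 genes of highest mean CPM, and for each gene not barred by the gap rule the 3 genes of highest Pearson r among those of mean CPM 1 or above with a count in at least 4 embryos; genes sharing the same set of embryos were added after the values were seen. Nothing states that the embryos came from separate litters, so the p-values describe variation among these 7 libraries, part of which may be technical.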

Additional observations from a re-analysis of the deposited data

Results flagged for a closer look

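Of 12 sets of values checked over the 7 embryos (the log2 CPM of each of the 8 genes, the differences of the 3 gene pairs and the oocyte share), 1 had a sample far from the others. The log2 CPM of H1f0 in embryo 6 was -2.07, the value a count of 0 takes, while the other 6 embryos had counts. Embryo 6 is the shallowest library, with 139619 counts, and its limit for a count of 0 is 21.5 CPM. The rule's nominal rate of about 1 flag in 20 sets assumes normally distributed values. Sets with several embryos at a count of 0 do not meet this, so that rate does not hold here.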

How the results depend on the processing

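The test of spread called 0 genes under each of its 17 alternatives, and the noise of these libraries leaves it little power. For H1foo against H1f0 the log2 difference stayed negative, smallest at -1.40 with thinned libraries, and for H3f3a against H3f3b between 2.61 and 9.08. Neither passed the adjusted threshold under any of these alternatives, and with each embryo left out in turn the ranges were -5.59 to -3.63 and 3.99 to 6.13. H1foo against H1fx changed sign: 0.32 with libraries thinned to the lowest total, 0.041 in the authors' deposited log2 table, 0.80 without embryo 1 and 0.37 without embryo 4, with a range of -0.92 to 0.80 over embryos left out. The cause was not tested. The median oocyte share lay between 21.7% and 45.6%. Without embryos 3 and 6, a choice made after seeing the data, Npm2 had counts in 3 of 5 embryos. Thinning, which raises the level that a count of 0 stands for, lowered every SD, to 0.22 for H3f3b and to 2.84 for H3f3a. Among pairs of the 8 genes, all barred in the analysis reported, H1f0 and H2afx were not barred with thinned libraries (r -0.20, exact permutation p 0.675, rho -0.41, p 0.371), nor H1f0 and H1fx in the authors' table (r 0.22, exact permutation p 0.614, rho -0.15, p 0.781). H2afz itself was barred with DESeq2 size factors, library totals, thinning, a prior count of 0.5, the authors' table, without embryo 6 and without embryos 3 and 6, so its correlations have no value there. No paired analysis was possible because the labels give only 1 group, so no replicate number is shared between groups.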
